A study of Caenorhabditis elegans with 51 samples.

Results

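The 278 genes described here were those whose small RNA was higher than the input in CSR-1 precipitates and lower than the input in HRDE-1 precipitates of Caenorhabditis elegans young adults. They were chosen from 20202 genes, of which 8042 had at least 3 RPKM in both input libraries. A member had at least 1.8 times the input in CSR-1 and at most 0.6 of the input in HRDE-1, in replicate 1 and in replicate 2, on RPKM + 1. RPKM scales reads to the length of the gene model and to the size of the library. Genes whose name begins with any of 14 prefixes (rpl-, rps-, mrp, his-, cpg-, egg-, mex-, pos-, puf-, fbf-, meg-, npp-, rpn- and klp-) were left out by the rule. Since these ratios chose the members, their values in both comparisons are a description, and no test result is read as support for them.

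CSR-1 and HRDE-1 are Argonautes of the worm germline, proteins that hold a small RNA and find transcripts by base pairing. CSR-1 is known for 22G siRNAs against many genes that the germline expresses, and it is linked to licensing of those genes and to chromosome segregation. HRDE-1 is a nuclear Argonaute known for siRNAs against silenced genes and repeats, and it is needed for silencing that is inherited. Both receive siRNAs that RNA-dependent RNA polymerases make on a target transcript.

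The study asked how siRNAs made from a retrotransposon insert are suppressed, and 6 of its 51 samples are used here. All 6 libraries came from the strain CSS342, which carries Cer3(red20) together with SF-HRDE-1 and also c-myc-CSR-1. A fragment of oma-1 sits in the retrotransposon Cer3, and both Argonautes carry an epitope tag, so the input shares the insert and the tags with the precipitates. There were 2 input libraries, 2 HRDE-1 and 2 CSR-1 small RNA immunoprecipitations, and the labels used here name no precipitate from an untagged strain. The labels do not state whether the replicates were separate cultures, so the spread between them may be technical.

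Library totals, deduced from the values, ran from 2104162 to 4992358 reads, and 39.8% to 51.8% of them lay on gene models. Over 7259 genes, the input replicates differed by less than the sampling noise (chi-square over its degrees of freedom 0.982, p = 0.856 across genes) and were counted as 1 sample in the model across all genes. Those of HRDE-1 (1.801) and CSR-1 (1.054) differed by more. No spermatogenesis, collagen, neuronal, muscle or intestinal gene of the marker lists was a member, but only 20, 15, 9, 1 and 1 of them passed the input minimum, and members were 3.46% of all genes that did. The animals were whole, so fewer cells of a type and less small RNA per cell cannot be told apart.

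In the input, the members had medians of 23.6 and 23.3 RPKM in replicates 1 and 2. Their medians were 11.3 and 9.98 RPKM in HRDE-1 and 50.5 and 51.9 RPKM in CSR-1. The lowest member read 3.22 RPKM and the highest 80.2 RPKM over both input libraries. In all 278 members both CSR-1 libraries were above both input libraries and both HRDE-1 libraries were below them, with no overlap, which the limits nearly fix. The input level itself was ordinary, since the other 7764 genes above the minimum had input medians of 23.9 and 24.3 RPKM. Their range was wider, and 1028 of them had a mean input above that of the highest member.

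**Figure D1:**
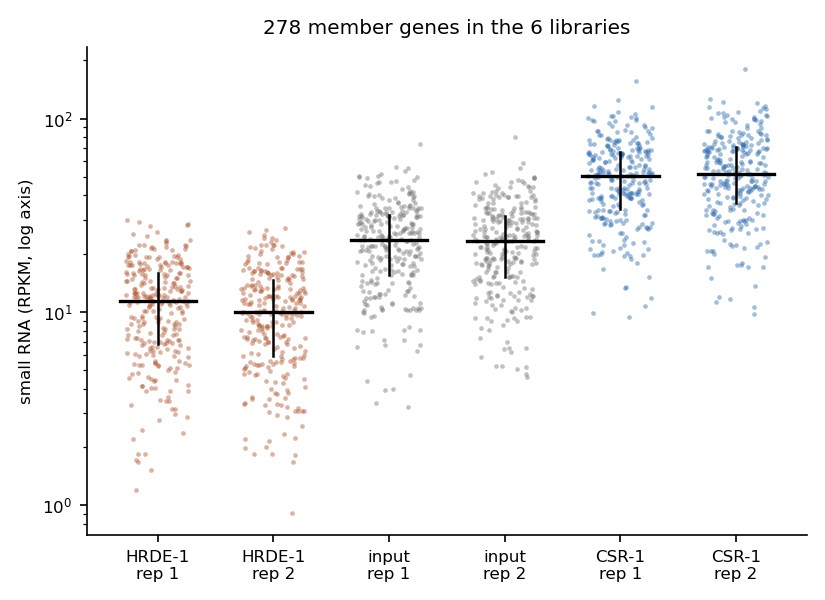
Small RNA of the 278 member genes in each of the 6 libraries, in RPKM on a log axis. Each point is a gene, thick bars are medians and vertical bars span the quartiles. The medians run from 9.98 and 11.3 in HRDE-1 through 23.3 and 23.6 in the input to 50.5 and 51.9 in CSR-1.

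Deduced reads on the members made up 2.85% and 2.76% of those on all genes in the input, and all of them are minimum numbers. The share was 1.44% and 1.26% in HRDE-1 and 7.68% and 7.64% in CSR-1. The replicates of each kind lay close together. The kinds did not overlap, which follows from how the members were chosen. As a ratio to the input, CSR-1 had member medians of 2.07 and 2.17 in the replicates, with a range of 1.801 to 4.54. HRDE-1 had medians of 0.517 and 0.467, with a range of 0.212 to 0.5999. CSR-1 was at least 2-fold the input in both replicates in 150 members, at least 3-fold in 3 and at least 4-fold in 0. HRDE-1 was at most 0.5 of the input in 97 members and at most 0.3 in 4. The ratios were thus mostly moderate and close to the limits.

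The limits were met separately by many more genes. Of 8424 gene models above the input minimum, 10.1% met the CSR-1 limit in both replicates, 19.9% met the HRDE-1 limit and 3.56% met both. Member models were 3.44% of these models, and member genes 3.46% of the genes above the minimum. The rule used these contrasts, so nothing is read from the shares. The 547 non-member genes with a model that met the CSR-1 limit, dropped names included, had HRDE-1 medians of 0.705 and 0.640 of the input. The 1301 non-member genes with a model that met the HRDE-1 limit had CSR-1 medians of 1.34 and 1.36 times the input. Across all 8042 genes, the medians were 0.857 and 0.851 for CSR-1 and 0.880 and 0.818 for HRDE-1.

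**Figure D2:**
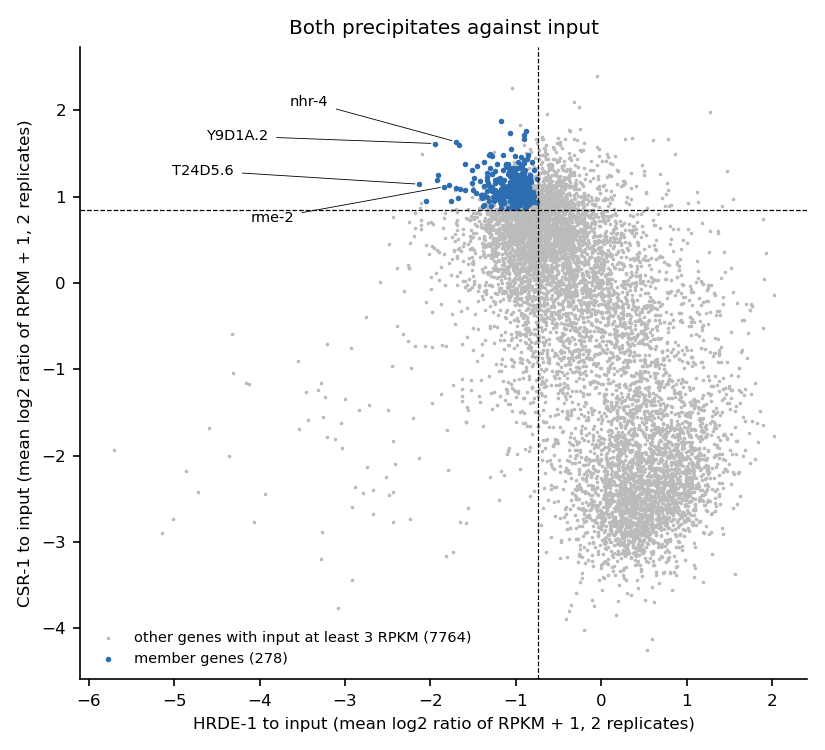
Mean log2 ratio to the input over 2 replicates, HRDE-1 on the x axis and CSR-1 on the y axis, for 278 member genes (blue) and 7764 other genes (grey). Dashed lines are the limits. The members fill the upper left corner of a cloud that continues past both limits without a gap.

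Genes on either side of the limits differed little. Just inside, B0432.6 had an HRDE-1 ratio of 0.5999 in replicate 1 and asps-1 one of 0.5994. Also just inside, gtap-1 had a CSR-1 ratio of 1.801 in replicate 1. fem-2, a phosphatase of sex determination, had a CSR-1 ratio of 1.801 in replicate 2. Just outside, gip-1, a component of the gamma-tubulin complex, missed with an HRDE-1 ratio of 0.6001 in replicate 1, as did fnci-1 with 0.6005. Y38C9A.1 and fbxl-2 missed with CSR-1 ratios of 1.798 each in replicate 1. Genes next to the limits thus had almost the same values whether they were members or not.

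The choice was also made in 1 replicate alone and read in the other. Of 401 genes that met both limits in replicate 1, 270 met both in replicate 2 (67.3%), against 8.3% of all 7834 genes that could be chosen. In replicate 2 their CSR-1 value was above the input in 400 of 401 and their HRDE-1 value below it in 399. Their medians in that replicate were 2.13 times the input for CSR-1 and 0.47 for HRDE-1, beside 0.85 and 0.83 over all the genes. In the other direction 650 genes met both limits in replicate 2, and 270 of them did so in replicate 1 (41.5%, against 5.12% of all). CSR-1 was above the input in 648 of these and HRDE-1 below it in 644. The medians were 1.96 and 0.56, beside 0.84 and 0.89 over all the genes. The direction was thus kept in nearly every gene chosen on 1 replicate, while the limits themselves were often missed in the other. Over all the genes the median HRDE-1 ratio was itself below 1, and the share of all genes on each side of the input was not counted. The same libraries chose the members, so these counts are a description and no support for them.

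**Figure D3:**
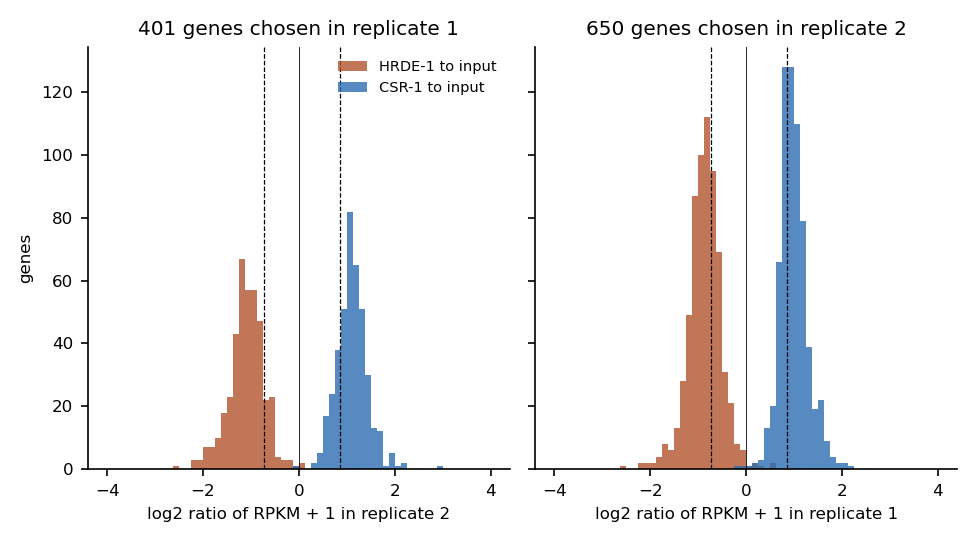
Log2 ratios to the input of RPKM + 1 in the replicate not used for the choice, for 401 genes chosen in replicate 1 (left) and 650 chosen in replicate 2 (right). Dashed lines are the limits and bars count genes. CSR-1 (blue) lies above 0 in 400 and 648 genes, and HRDE-1 (orange) below 0 in 399 and 644. The share of all genes on each side of 0 was not counted.

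Set against each other, CSR-1 exceeded HRDE-1 by medians of 4.07 and 4.83 times in the 2 replicates. The widest gap was in Y9D1A.2, annotated as a pseudogene on chromosome II. It read 49.8 and 29.2 RPKM in the input, 10.4 and 8.10 RPKM in HRDE-1 and 124.3 and 113.6 RPKM in CSR-1. Its 2 input libraries stood apart from each other, and CSR-1 was 11.04 and 12.59 times HRDE-1. nhr-4, a nuclear hormone receptor, had a low input of 6.31 and 6.49 RPKM, with 1.71 and 0.914 RPKM in HRDE-1 and 22.1 and 21.8 RPKM in CSR-1. The second HRDE-1 library held only 5 deduced reads on nhr-4, so its low side is coarse. T24D5.6, whose protein has no role stated here, read 51.4 and 44.2 RPKM in the input, 10.1 and 10.1 RPKM in HRDE-1 and 101.1 and 112 RPKM in CSR-1. It had the lowest mean HRDE-1 ratio among the members (log2 -2.13 ± 0.15, SD, n = 2).

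acs-13, an acyl-CoA synthetase, read 17.9 and 14.9 RPKM in the input, 5.27 and 3.78 RPKM in HRDE-1 and 51.9 and 51.2 RPKM in CSR-1. aipr-1, listed as C56C10.10, read 16.1 and 14.1 RPKM in the input, 3.50 and 3.04 RPKM in HRDE-1 and 35.99 and 38.4 RPKM in CSR-1. Both had replicates close together, and their kinds of library did not overlap, which the limits nearly fix. cgef-1, a guanine nucleotide exchange factor for CDC-42 listed as tag-150, read 7.13 and 5.82 RPKM in the input, 2.36 and 2.22 RPKM in HRDE-1 and 23.5 and 29.4 RPKM in CSR-1. Its mean CSR-1 ratio was the highest among the members, a log2 of 1.87 ± 0.40 (SD, n = 2).

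The list of oogenic and maternal RNA regulators also holds genes of other kinds, such as rme-2 and tut-1. Of its genes, 4 were members, of 35 above the input minimum. Over all lists and other genes, members were 3.46% of the genes above that minimum, and no list was tested for its share. rme-2, the receptor through which oocytes take up yolk, had the highest input of any member, 73.5 and 80.2 RPKM. It read 20.5 and 21.0 RPKM in HRDE-1 and 156 and 180.0 RPKM in CSR-1. The log2 ratio to the input was 1.11 ± 0.06 in CSR-1 and -1.84 ± 0.07 in HRDE-1 (SD, n = 2). Ranked by mean RPKM over genes, rme-2 was number 1029 in the input, 3612 in HRDE-1 and 85 in CSR-1. lin-41, a TRIM-NHL protein of oocyte growth, read 10.9 and 12.3 RPKM in the input, 5.30 and 3.64 RPKM in HRDE-1 and 29.8 and 33.8 RPKM in CSR-1. pqn-59, a glutamine-rich protein, read 29.6 and 31.5 RPKM in the input, a mean of 11.08 ± 1.25 RPKM (SD, n = 2) in HRDE-1 and 55.4 and 59.5 RPKM in CSR-1. tut-1, a tRNA thiolation enzyme, read 28.8 and 27.04 RPKM in the input, 13.2 and 13.1 RPKM in HRDE-1 and 73.0 and 67.8 RPKM in CSR-1. In each of the 4 the kinds of library kept the order HRDE-1, input, CSR-1, as the rule sets for every member.

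The rule's prefixes remove related genes. The limits were met by 10 gene models of dropped names, 5 of them models of cpg- genes. cpg-2, an eggshell chondroitin proteoglycan, read 35.1 and 38.7 RPKM in the input, 9.24 and 6.57 RPKM in HRDE-1 and 98.8 and 112 RPKM in CSR-1. egg-1, an oocyte surface receptor of the egg activation pathway, read 42.7 and 39.4 RPKM in the input, 16.6 and 13.7 RPKM in HRDE-1 and 86.2 and 91.8 RPKM in CSR-1. Ribosomal rps-18 read 22.3 and 22.1 RPKM in the input, 8.08 and 7.16 RPKM in HRDE-1 and 42.3 and 46.6 RPKM in CSR-1. With the names kept there were 287 genes. Conversely, 3 mitochondrial ribosomal protein genes, now named mrps-15, mrps-22 and mrpl-22, were members because the deposited table carries their older names.

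Small RNA pathway genes were themselves among the members, 4 of 48 above the input minimum. prde-1, needed to make piRNA precursors, read 23.9 and 28.1 RPKM in the input, 11.99 and 11.7 RPKM in HRDE-1 and 62.7 and 71.3 RPKM in CSR-1. rrf-3, the RNA-dependent RNA polymerase of the 26G siRNA pathway, read 22.2 and 24.4 RPKM in the input, 12.1 and 10.7 RPKM in HRDE-1 and 50.9 and 54.9 RPKM in CSR-1. rde-1, the Argonaute of the response to double-stranded RNA, read 21.3 and 22.7 RPKM in the input, 11.2 and 11.5 RPKM in HRDE-1 and 43.3 and 47.8 RPKM in CSR-1. With rde-2, a mutator gene needed for siRNA amplification, the mean log2 CSR-1 ratio was 1.34 for prde-1, 1.15 for rrf-3, 1.03 for rde-2 and 1.01 for rde-1. No P granule gene of the list of 20 was a member, and the rule drops the meg- names. oma-1, whose fragment is inserted in Cer3, was not a member, with 33.1 and 30.3 RPKM in the input, 26.6 and 28.8 RPKM in HRDE-1 and 30.2 and 32.8 RPKM in CSR-1.

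Among 41 meiotic chromosome genes above the minimum, zim-3 and coh-4 were members. zim-3, a zinc finger protein of the pairing centres, read 26.9 and 23.9 RPKM in the input, 11.05 and 8.91 RPKM in HRDE-1 and 51.1 and 52.04 RPKM in CSR-1. coh-4, a kleisin of meiotic cohesin, read 33.7 and 36.4 RPKM in the input, 16.7 and 18 RPKM in HRDE-1 and 68.6 and 70.3 RPKM in CSR-1. The mean log2 CSR-1 ratio was 0.99 in zim-3 and 0.97 in coh-4. No library overlapped with one of another kind, as in every member.

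Cell division contributed 6 members of 89 genes above the minimum, 3 of which act on centrosomes, spindles or the contractile ring. spd-2, a centrosome assembly protein, read 23.5 and 21.8 RPKM in the input, 10.8 and 9.91 RPKM in HRDE-1 and 46.3 and 53.1 RPKM in CSR-1. zyg-8, a doublecortin-like kinase of the spindle, had a higher input of 47.9 and 49.2 RPKM, with 22.7 and 21.99 RPKM in HRDE-1 and 96.8 and 102 RPKM in CSR-1. ani-1, the anillin of the contractile ring, read 32.0 and 32.4 RPKM in the input, 18.7 and 16.4 RPKM in HRDE-1 and 65.1 and 69.9 RPKM in CSR-1. In all of them the CSR-1 libraries were above and the HRDE-1 libraries below both input libraries, as the rule sets. cyb-1, a B-type cyclin, read 20.6 and 21.2 RPKM in the input, 9.15 and 11.9 RPKM in HRDE-1 and 39.7 and 43.4 RPKM in CSR-1. The others were zyg-11, a substrate adaptor of a cullin ligase, and cdc-48.2, an AAA ATPase, with mean log2 CSR-1 ratios of 0.86 and 1.07.

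DNA replication and repair had 5 members of 78 genes above the minimum. brc-2, the worm BRCA2 homolog, read 34.7 and 30.7 RPKM in the input, 16.5 and 15.1 RPKM in HRDE-1 and 69.9 and 67.95 RPKM in CSR-1. brd-1, the BARD1 homolog, read 21.5 and 24.8 RPKM in the input, 12.2 and 13.3 RPKM in HRDE-1 and 43.2 and 50.8 RPKM in CSR-1. sld-5, a subunit of the GINS replication complex, read 7.92 and 15.1 RPKM in the input, 4.14 and 5.32 RPKM in HRDE-1 and 39.5 and 38.1 RPKM in CSR-1. The input libraries of sld-5 stood apart from each other, and its log2 CSR-1 ratio of 1.73 had an SD of 0.64 (n = 2). lig-1, DNA ligase I, and xpf-1, a repair nuclease, had mean log2 CSR-1 ratios of 1.11 and 0.97 and HRDE-1 ratios of -0.84 and -1.05.

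Chaperones supplied 8 members of 83 genes above the input minimum, of which cct-5, cyn-7 and crt-1 were among the 10 with the widest gap between CSR-1 and HRDE-1. cct-5, a subunit of the CCT chaperonin that folds tubulin and actin, read 15.6 and 16 RPKM in the input, 4.04 and 2.87 RPKM in HRDE-1 and 33.3 and 41.9 RPKM in CSR-1. Its partner cct-1 read 34.9 and 34.8 RPKM in the input, 15.6 and 12.2 RPKM in HRDE-1 and 72.7 and 80.04 RPKM in CSR-1. Both subunits were about 2-fold above the input in CSR-1, with a deeper HRDE-1 ratio in cct-5 (log2 -1.93 ± 0.30) than in cct-1 (-1.28). crt-1, calreticulin of the endoplasmic reticulum, read 26.2 and 30.99 RPKM in the input, 10.6 and 7.2 RPKM in HRDE-1 and 77.2 and 74.2 RPKM in CSR-1. cyn-7, a cyclophilin, read 29.8 and 34.98 RPKM in the input, 6.48 and 7.65 RPKM in HRDE-1 and 57.5 and 69.0 RPKM in CSR-1. cyn-7 has a close paralog, and how reads that map to several places were counted is not given in the sources used here, so its level is uncertain. The same holds for hsp-4, a BiP chaperone. daf-41, the p23 co-chaperone, had the highest input of the group, 50.3 and 52.8 RPKM, with 19.7 and 26.6 RPKM in HRDE-1 and 116 and 122 RPKM in CSR-1. The co-chaperone fkb-6 and the cyclophilin cyn-13 had mean log2 CSR-1 ratios of 1.22 and 1.14.

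Proteasome and ubiquitin genes, the longest list, gave 13 members of 167 genes above the input minimum. They include 3 cullins, the scaffolds of ubiquitin ligases, at mean log2 CSR-1 ratios of 0.95 for cul-1, 1.03 for cul-2 and 1.07 for cul-3. cul-1 read 27.3 and 26.9 RPKM in the input, 15.4 and 14.8 RPKM in HRDE-1 and 52.2 and 54.6 RPKM in CSR-1. lin-23, an F-box protein that serves such a ligase, read 29.2 and 28.03 RPKM in the input, 14.99 and 11.5 RPKM in HRDE-1 and 65.6 and 72.6 RPKM in CSR-1. The core proteasome subunits pas-6 and pbs-6 were members, as were the ATPases rpt-4 and rpt-5 of its cap. pas-6 read 26.3 and 25.8 RPKM in the input, 8.91 and 10.03 RPKM in HRDE-1 and 52.2 and 54.8 RPKM in CSR-1. rpt-5 read 29.2 and 27.97 RPKM in the input, 15.7 and 15.03 RPKM in HRDE-1 and 56.1 and 57.2 RPKM in CSR-1. The remaining members were uev-1, a variant ubiquitin-conjugating enzyme, ufd-2, a chain elongation factor, the deubiquitinase usp-48, and zyg-11 and cdc-48.2, counted also under cell division. The rule drops the rpn- names of the proteasome cap.

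**Figure D4:**
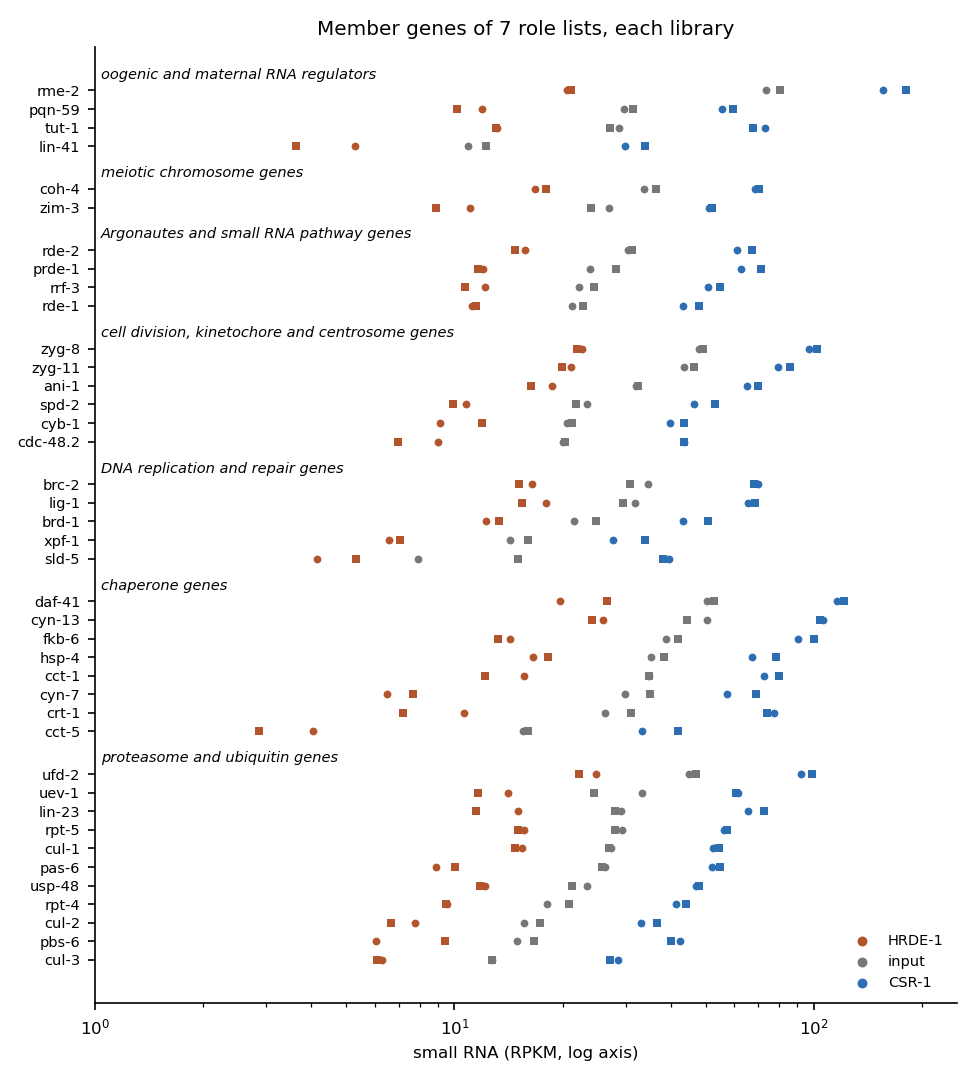
Small RNA of the member genes of 7 role lists, in RPKM on a log axis, with 1 row per gene and 6 points per row (circles replicate 1, squares replicate 2). HRDE-1 is orange, the input grey and CSR-1 blue. A gene in several lists is drawn once. In every row HRDE-1 lies left and CSR-1 right of the input, as the rule sets, with rme-2 at the right edge (156 and 180.0 in CSR-1).

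Nuclear gene regulation was represented by 10 members of the 146 chromatin and transcription genes above the minimum. The Mediator subunits mdt-4, mdt-10, mdt-15 and mdt-30 had mean log2 CSR-1 ratios of 0.99, 1.199, 1.07 and 0.94. For mdt-15 only 1 of its 2 models was a member. That model read 8.02 and 10.4 RPKM in the input, and the model with the higher values did not meet the rule. mdt-4 read 39.7 and 42.01 RPKM in the input, 15.2 and 15.8 RPKM in HRDE-1 and 79.97 and 84.5 RPKM in CSR-1. spr-1, the CoREST homolog, read 53.3 and 49.0 RPKM in the input, 27.7 and 25.7 RPKM in HRDE-1 and 98.2 and 109 RPKM in CSR-1. It was among the 8 members with the highest input. set-16, an MLL-like histone methyltransferase, read 30.8 and 30.1 RPKM in the input, 17.5 and 15.6 RPKM in HRDE-1 and 56.4 and 59.7 RPKM in CSR-1. Its HRDE-1 ratio lay near the limit (log2 -0.84). The histone demethylase jmjd-2, the SWI/SNF subunit swsn-6 and the TFIID subunits taf-5 and taf-6.2 had mean log2 CSR-1 ratios of 1.00, 0.98, 1.01 and 1.00.

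Another 10 members process RNA, also of 146 list genes above the minimum. rbm-28, an RNA-binding protein, read 41.3 and 44.1 RPKM in the input, 16.99 and 16.9 RPKM in HRDE-1 and 98.1 and 109 RPKM in CSR-1. pro-3, a ribosome biogenesis factor of germline development, read 21.6 and 17.5 RPKM in the input, 9.27 and 7.27 RPKM in HRDE-1 and 52.5 and 59.5 RPKM in CSR-1. rnp-8, a partner of the cytoplasmic poly(A) polymerase GLD-2, read 23.5 and 26.2 RPKM in the input, 12.3 and 12.5 RPKM in HRDE-1 and 50.6 and 52.9 RPKM in CSR-1. All had CSR-1 libraries above 50 RPKM and HRDE-1 libraries under 20 RPKM. The splicing factors mog-2, prp-39, prp-40 and skp-1 had mean log2 CSR-1 ratios of 1.37, 0.91, 1.08 and 1.12, and the input of mog-2 differed between its libraries (24.8 and 16.8 RPKM). The RNA helicase ddx-52, the RNA-binding protein rbm-7 and the polyadenylation factor cpsf-1 had mean log2 CSR-1 ratios of 1.29, 1.06 and 1.06. In translation, the members were the initiation factors iffb-1 (eIF5B) and ifg-1 (eIF4G), with ratios of 1.34 and 0.97.

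Membrane traffic had 12 members of 154 genes above the input minimum, rme-2 among them. rab-7, the GTPase of late endosomes, read 27.1 and 28.7 RPKM in the input, 11.07 and 9.29 RPKM in HRDE-1 and 56.2 and 58.7 RPKM in CSR-1. hgrs-1 and stam-1 encode both subunits of ESCRT-0, which sorts ubiquitinated cargo, with mean log2 CSR-1 ratios of 0.91 and 1.11. vps-16 and vps-18, core subunits of the tethering complexes of endosomes, had ratios of 1.14 and 1.07. The adaptor subunit apg-1, the Golgi syntaxin syx-5, the Rab GTPase-activating protein tbc-9, the TRAPP subunit trpp-8, the GARP subunit vps-53 and the V-ATPase subunit vha-17 made up the rest, with mean log2 CSR-1 ratios of 0.90 to 1.35.

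Actin regulation was represented by unc-60 and pfn-1. unc-60, a cofilin that severs filaments, read 32.1 and 39.7 RPKM in the input, 9.30 and 10.03 RPKM in HRDE-1 and 72.9 and 86.1 RPKM in CSR-1. pfn-1, a profilin, read 47.2 and 48.3 RPKM in the input, 18.2 and 14.1 RPKM in HRDE-1 and 100.9 and 115 RPKM in CSR-1. nmy-2, the non-muscle myosin of the early embryo, read 23.5 and 24.7 RPKM in the input, 12.6 and 12.02 RPKM in HRDE-1 and 50.3 and 52.9 RPKM in CSR-1. The HRDE-1 ratio was deeper in unc-60 (log2 -1.78) and pfn-1 (-1.52) than in nmy-2 (-0.92). In nuclear transport, ima-2, an importin alpha of the germline, and mel-28, a chromatin-bound nuclear pore protein, had mean log2 CSR-1 ratios of 1.09 each. Mitochondrial members were atp-5 of ATP synthase, ndua-5 of complex I and the protease spg-7, with mean log2 CSR-1 ratios of 0.94, 1.33 and 1.06.

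Most members, 197 of 278, fell in none of the role lists. Of the 8 with the highest input, 4 were of this kind. gss-1, listed as M176.2, read 56.1 and 59.2 RPKM in the input, 29.8 and 22.2 RPKM in HRDE-1 and 103 and 121 RPKM in CSR-1. nhr-86, a nuclear hormone receptor, read 55.5 and 55.8 RPKM in the input, 28.2 and 27.2 RPKM in HRDE-1 and 103 and 107 RPKM in CSR-1. nucl-1, a nucleolin, read 49.2 and 49.6 RPKM in the input, 28.3 and 23.5 RPKM in HRDE-1 and 115 and 127 RPKM in CSR-1. All of these and C32D5.10 had HRDE-1 libraries between 22.2 and 29.8 RPKM, at the top of the HRDE-1 range of the members.

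Some further members in no list were picked for their known functions after the values were seen. pie-1, a zinc finger protein that keeps the embryonic germline from somatic transcription, read 20.7 and 18.7 RPKM in the input, 8.64 and 5.24 RPKM in HRDE-1 and 46.3 and 45.2 RPKM in CSR-1. dpy-21 and dpy-26 are both components of the complex that reduces expression of the X chromosome in hermaphrodites. dpy-21 read 11.4 and 11.7 RPKM in the input, 4.41 and 3.56 RPKM in HRDE-1 and 28.7 and 26.9 RPKM in CSR-1. dpy-26 read 32.98 and 33.4 RPKM in the input, 16.2 and 15.04 RPKM in HRDE-1 and 74.3 and 78.9 RPKM in CSR-1. Both had log2 CSR-1 ratios near the member median, at 1.196 and 1.182. hpr-9 and mrt-2, subunits of the DNA damage clamp, had log2 CSR-1 ratios of 1.39 and 1.25, and tim-1, the Timeless homolog, 1.24. dsh-2 and mig-5, the Dishevelled proteins of Wnt signalling, had log2 CSR-1 ratios of 1.22 and 1.15, and ptc-1, a Patched protein of germline cytokinesis, 1.45.

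The model across all genes was fitted with limma, and it is used here for the role lists. Over 10908 genes it called 778 higher (7.13%) and 4019 lower (36.8%) in CSR-1, and 780 higher (7.15%) and 1124 lower (10.3%) in HRDE-1, at a Benjamini-Hochberg adjusted p under 0.05 and a log2 change of at least 1. The median log2 change over these genes was -0.54 in CSR-1 and -0.03 in HRDE-1. Without the second CSR-1 library, 491 genes were higher in CSR-1. The lower calls in HRDE-1 came to 97 and 67 without HRDE-1 replicate 1 or 2, and to 0 without either CSR-1 library, where an unadjusted p under 0.05 was found for 5512 and 5508 genes. Of the members, 199 were called higher in CSR-1 and 153 lower in HRDE-1, 113 of them in both, which is no support since the rule used these contrasts. Cell division genes had 19 of 89 higher and 1 lower in CSR-1, then 15 lower and 1 higher in HRDE-1 and medians of 0.72 and -0.67. Splicing and RNA processing genes had 31 of 148 higher and 6 lower in CSR-1, with 23 lower in HRDE-1 and medians of 0.63 and -0.60. Replication and repair genes had 14 of 81 higher and 1 lower in CSR-1, with 10 lower in HRDE-1 and medians of 0.66 and -0.64. Oogenic and maternal regulators had 7 of 35 higher and 1 lower in CSR-1, with 18 lower in HRDE-1 and medians of 0.66 and -1.03. In CSR-1, most genes of each of these lists were called in neither direction. Meiotic genes had 4 of 41 higher in CSR-1 and 6 lower in HRDE-1, and small RNA pathway genes 5 of 51 higher, 4 lower and 4 lower in HRDE-1. Membrane traffic had 23 of 169 higher in CSR-1, beside 17 lower, and 31 lower and 10 higher in HRDE-1. Chaperones had 12 of 93 higher and 15 lower in CSR-1, with 19 lower and 2 higher in HRDE-1. Of 211 proteasome and ubiquitin genes, 18 were higher in CSR-1 and 89 lower, around a median of -0.61, near the share and median of all genes tested, and in HRDE-1 24 were lower and 26 higher. Translation genes had 6 of 81 higher and 2 lower in CSR-1, and 19 lower in HRDE-1. Mitochondrial genes had 8 of 110 higher and 14 lower in CSR-1, and 25 lower and 3 higher in HRDE-1. Tubulin and actin genes had 10 of 66 higher and 5 lower in CSR-1, and 19 lower in HRDE-1. Nuclear transport genes had 3 of 22 higher and 1 lower in CSR-1, and 4 lower and 1 higher in HRDE-1. Of the marker lists, 0 of 53 spermatogenesis, 0 of 34 collagen, 0 of 14 neuronal, 0 of 3 muscle and 0 of 12 intestinal genes were higher in CSR-1, and 46, 23, 10, 2 and 1 of them were lower. The CSR-1 median was 0.55 for the intestinal list and between -1.82 and -1.36 for the others. In HRDE-1, 15, 0, 0, 1 and 6 genes of these lists were lower and 1, 2, 3, 0 and 0 higher. The HRDE-1 medians were -0.50, 0.09, 0.43, 0.08 and -1.06. Both intestinal medians thus had the signs of those of the oogenic list. Chromatin and transcription genes had 10 of 157 higher and 15 lower in CSR-1, with 10 lower and 5 higher in HRDE-1. In CSR-1, the shares called higher in the meiotic, small RNA pathway, translation, mitochondrial and chromatin lists lay near the 7.13% of all genes. No list was tested for its share.

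Genes outside the members marked the same lists in 1 of the comparisons. By limma, spr-2 of the chromatin list rose in CSR-1 by a log2 of 1.66 (SE 0.14, adjusted p = 0.000899), and HRDE-1 was lower by less (log2 -0.69). The traffic gene syx-17, a syntaxin, rose in CSR-1 by 1.75 (limma, SE 0.11, adjusted p = 0.0004) from 21.7 and 16.9 RPKM in the input to 68.3 and 66.1 RPKM. These met the CSR-1 limit and not that of HRDE-1. In HRDE-1 the Y-box protein gene cey-2 fell by 2.44 on the log2 scale (limma, SE 0.14, adjusted p = 0.00793), from 66.3 and 63.9 RPKM in the input to 10.7 and 11.56 RPKM, while its CSR-1 change was 0.76. The beta-tubulin tbb-2 fell by 2.24 on the log2 scale in HRDE-1 (limma, SE 0.12, adjusted p = 0.00743), with a CSR-1 change of 0.46, and it has close paralogs. These HRDE-1 calls were not made when an HRDE-1 or a CSR-1 library was left out, where the fit called few or no genes.

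The annotation (WBcel235) gave features that the rule did not use. It matched 271 members, of which 267 (98.5%) were protein coding, beside 96.9% of the other genes above the input minimum. Chromosomes I to V held between 44 and 60 members each. The X chromosome, which is largely silent in the germline, held 4 members (1.48%), beside 7.60% of the other genes above the minimum and 1171 of the 10617 matched genes tested by limma. These 4 were T24D5.6, cgef-1, metl-9 and nra-3, and 2 of them had inputs of under 6 RPKM. Non-members that met the HRDE-1 limit had 1.88% on X, and those that met the CSR-1 limit 5.05%. The reverse rule, HRDE-1 at least 1.8 times and CSR-1 at most 0.6 of the input, gave 440 genes, of which 118 of 435 matched (27.1%) lay on X. The low X share was thus closer to that of the non-members under the HRDE-1 limit, and no test was made.

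**Figure D5:**
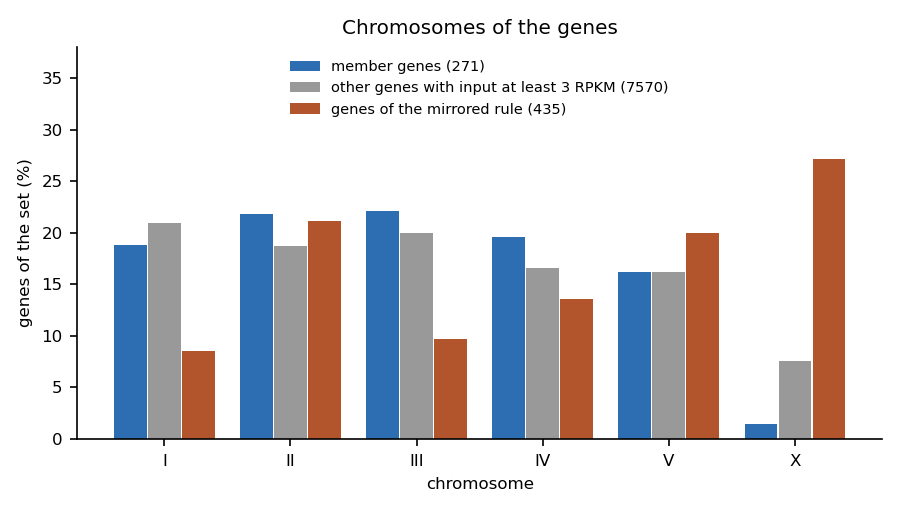
Share of genes on each chromosome, in percent of the set, for 271 member genes (blue), 7570 other genes with an input of at least 3 RPKM (grey) and 435 genes of the reverse rule (orange). On X the bars stand at 1.48%, 7.60% and 27.1%.

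Member genes were long. The median coding length of the protein-coding members was 1674 bases, beside 1086 for the other genes above the minimum, 1323 and 1324 for the non-members that met the CSR-1 or the HRDE-1 limit and 916.5 for the reverse rule. The median number of exons was 7 in members, 6 in the other genes and 5 in the reverse rule. At the same RPKM a longer gene holds more reads, and the part of read depth in the choice was not tested. The members had median deduced reads of 109.5 and 84.5 in the input and of 92.0 and 55.5 in HRDE-1, and the other genes 86 and 68 in the input. In 11 members some library held fewer than 10 deduced reads.

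On the autosomes, 61.8% of members lay in the middle 50% of their chromosome, beside 57.0% of the other genes. The share was 62.2% in non-members that met the CSR-1 limit and 65.1% in those that met the HRDE-1 limit. A neighbour on the same strand within 1000 bases was present for 163 of 267 protein-coding members and for 3934 of 7334 other genes (53.6%), a spacing that includes operons, the shared transcription units of worm genes. Of non-members that met the CSR-1 or the HRDE-1 limit, 2.82% and 2.72% were next to a member, and of the other genes 2.25%. Members also rarely sat beside each other, with 8 of 267 (3.0%) next to another member. The 4 pairs were uev-1 with hinf-1 on chromosome I, H20J04.4 with madf-3 on II, R148.4 with R148.3 on III and asps-1 with B0024.11 on V. The gaps between them were 105, 100, 485 and 97 bases. uev-1 and hinf-1 read 33.3 and 24.4 RPKM and 22.02 and 21.6 RPKM in the input.

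Within the members, whose ratios the limits hold in a narrow range, the ratios are given by input level as a description. In the 93 members with the lowest input (4.08 to 18.3 RPKM) the median log2 ratio was 1.18 in CSR-1 and -1.04 in HRDE-1. In the middle 92 members they were 1.06 and -1.03, and in the 93 highest (28.8 to 76.9 RPKM) 1.06 and -0.99. The medians over all members were 1.09 and -1.03. RPKM is relative to each library's own total, and with every library centred on its own median the rule chose 204 genes, of which 63 were members. With each precipitate's median ratio brought to 1 it chose 821 genes, 253 of them members. The list thus holds on the scale of the deposited values.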

How the data were processed

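Small RNA of 6 libraries was analysed: 2 of the input, 2 of HRDE-1 and 2 of CSR-1 precipitates. Per the labels' protocols, RNA was treated with a phosphatase and a polynucleotide kinase and ligated to linkers. The authors deposited RPKM values for 20938 gene models, and the submitters' processing notes list Bowtie 1.2.3. The genome build, the strand counted and the handling of multi-mapped reads are steps not given in the sources used here. Another 45 value columns carry library codes not tied to the labels and were not used here.

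With 1 total per library and 1 length per model deduced from the values, 100% of the 80624 nonzero values were whole reads (tolerance 1e-06). These reads serve for depth, the replicate chi-square, the share of reads on the members and the read numbers given for genes. Lengths are the shortest that fit, so reads are minimum numbers. A gene with several models was represented by the model with the highest mean, and a member by the highest of its member models. Of the 278 members, 11 also had a model outside the members. The limma fit and the ranks used the highest model of a gene, whether or not it met the rule. The choice in 1 replicate used the highest model above the input minimum.

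A model of log2(RPKM + 1) was fitted in R 4.3.3 with limma 3.58.1 for genes with at least 1 RPKM in 2 libraries, with the 2 inputs as 1 sample (5 samples, 2 residual degrees of freedom), two-sided, with Benjamini-Hochberg adjustment. The lone input is assumed to vary like the other groups. P-values measure the spread between these samples. The fit was tested on simulated data.

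Members and gene lists were chosen with earlier results of these data known. Genes named by rule are the members with the widest CSR-1 to HRDE-1 gap, the highest input, a place in a role list or values nearest the limits. List genes called by limma were named as well. Some further members were picked for their known functions after the values were seen. Replicate numbers pair the ratios as the rule sets them. Names, chromosomes and lengths come from the Ensembl WBcel235 annotation, which matched 271 members. Alternatives were other pseudocounts, limits, filters, scalings, blocks and libraries left out.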

Additional observations from a re-analysis of the deposited data

How the results depend on the processing

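From 278 members, the number moved to 93 with a pseudocount of 5, to 14 with limits of 2.2 and 0.45, to 1046 with 1.5 and 0.7, to 821 with the median ratio brought to 1, and to 560 with no replicate block, that is on ratios of group means. Judged on 1 replicate alone, it was 418 to 677. It stayed within 1.5 times the main number at 359 and 324 (pseudocounts 0.1 and 0.5), 281 and 249 (input minimum of 1 and 10 RPKM), 342 (mean of both inputs), 287 (dropped names kept) and 204 (library medians centred). Of these 204 only 63 were among the 278, so centring kept the number but not most of the genes. The median CSR-1 log2 ratio of the members, 1.09, was 0.96 with a pseudocount of 5, 1.55 with medians centred and 1.57 with the median ratio brought to 1. The median HRDE-1 ratio, -1.03, was -0.81 with a pseudocount of 5 and -0.65 with medians centred. The offsets that centring removed were -0.46 and -0.45 in CSR-1 and -0.30 and -0.45 in HRDE-1, so log2 ratios moved up by these sizes. By limma, the genes higher in CSR-1 (778) were 343 with a pseudocount of 5, 2531 with medians centred and 2619 with the median ratio brought to 1, and 491 to 860 with 1 library left out. Those lower (4019) were 2350 with a pseudocount of 5. Those higher in HRDE-1 (780) were 275 with a pseudocount of 5, 491 with no filter and 2309 with medians centred, and 0 to 1045 with 1 library left out. Those lower (1124) were 393 with a pseudocount of 5 and 328 with medians centred, and 0 to 1256 with 1 library left out. The 0 came without a CSR-1 library, where 5512 and 5508 genes were under an unadjusted p of 0.05, and the fit had fewer samples. The replicate block, with 2 input samples, gave 826 and 4068 genes in CSR-1 and 940 and 1159 in HRDE-1. No ratio of a named gene reversed. Read depth limits the lowest members, 11 of which had under 10 deduced reads in some library.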
